A study of Homo sapiens with 9 samples.

Results

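WWOX is the large gene that lies across the common fragile site FRA16D. The data described here are all γH2AX ChIP-seq peaks that overlapped the body of WWOX by at least 1 bp, in 8 peak lists from a human B-lymphocyte line. The gene runs from 78099654 to 79212667 on chromosome 16 (GRCh38, plus strand), a length of 1113014 bp. In all, 228 peaks of the 213467 peaks in the 8 lists lay in WWOX, and 213 of the 228 came from aphidicolin-treated cells. WWOX was chosen by its number of peaks after aphidicolin, so the aphidicolin values below are a description and were not tested.

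The cell line is a lymphoblastoid line that the sample labels name GM09027A and the study's text names GM07027. Cells were left untreated or were treated for 24 h with 0.1 μg/mL aphidicolin (APH), 2 mM hydroxyurea (HU) or 200 μM methyl methanesulfonate (MMS), with 2 replicates per condition. All 4 conditions used the same line and the same γH2AX antibody, so the data describe 1 line, and an input library was used by the authors as the background for peak calling. APH inhibits replicative DNA polymerases, HU depletes the nucleotide pool by inhibiting ribonucleotide reductase, and MMS methylates DNA.

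γH2AX is the histone variant H2AX phosphorylated in chromatin around broken DNA and stalled replication forks, and it spreads well beyond the lesion itself. Common fragile sites are loci that show gaps and breaks on metaphase chromosomes when replication is partly inhibited, and many of them lie in very long genes that replicate late. FRA16D is among the most often expressed of these sites in lymphocytes after low doses of aphidicolin. WWOX encodes a WW domain-containing oxidoreductase, and the gene is often deleted in tumours.

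The MANE Select transcript of WWOX (ENST00000566780.6) has 9 exons with 2241 bp in total and 8 introns. Intron 8 alone, at chr16:78432753-79211607, spans 778855 bp or 70.0% of the gene, and intron 5 spans 222570 bp or 20%. The GC content of the gene is 42.6%, against an autosomal mean of 41%. The sequences below are the 2 sites with the highest mean fold enrichment among those called in both APH replicates, both in intron 8, given 5′ to 3′ on the plus strand of GRCh38. Capitals would mark AT repeated at least 4 times or runs of at least 6 A or 6 T, and neither site contains one.
WWOX intron 8 site, chr16:78515857-78516106: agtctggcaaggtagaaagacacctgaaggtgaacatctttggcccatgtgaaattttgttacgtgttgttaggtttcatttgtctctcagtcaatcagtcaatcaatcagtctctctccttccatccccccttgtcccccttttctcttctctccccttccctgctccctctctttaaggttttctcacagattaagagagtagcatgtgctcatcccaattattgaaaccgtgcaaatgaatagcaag
WWOX intron 8 site, chr16:78552490-78552778: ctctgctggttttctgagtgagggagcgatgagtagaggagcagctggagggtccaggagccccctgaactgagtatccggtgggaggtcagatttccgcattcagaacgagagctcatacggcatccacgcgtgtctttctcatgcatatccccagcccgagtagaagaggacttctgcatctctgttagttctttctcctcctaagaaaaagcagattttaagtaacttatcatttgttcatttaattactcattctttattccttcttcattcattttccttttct
The first site was called with a fold enrichment over background of 2.91 and 3.26 in APH replicates 1 and 2, and the second with 2.69 and 3.31. Their GC contents were 44% and 45.3%.

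FRA16D is known for long AT repeats, which can fold into secondary structures. A search of the gene for AT repeated at least 10 times, which reads the same on both strands, found 15 repeats, 11 of them in intron 8. The longest has 37 units and 74 bp and is shown because no peak reached it, all in capitals as the repeat itself.
WWOX intron 8 AT repeat, chr16:78575023-78575096: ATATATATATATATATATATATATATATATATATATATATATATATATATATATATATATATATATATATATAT
The nearest APH peaks lay 1805 bp from it in replicate 1 and 12703 bp in replicate 2. None of the 15 repeats overlapped an APH peak, and the smallest distance was 366 bp in replicate 1 and 1363 bp in replicate 2. APH peaks covered 14.5% of the gene in replicate 1 and 2.78% in replicate 2. With 15 repeats and this coverage, nothing is read from the lack of overlap. Of 300 bp windows, 0.350% of those in WWOX (13 of 3710) and 0.201% of those on the autosomes held such a repeat. Of the 300 bp at the middle of each APH peak, 0 of 160 in replicate 1 and 0 of 53 in replicate 2 did, counts that allow shares of up to 1.88% and 5.66%. Runs of at least 20 A or 20 T, which share no bases with the AT repeats, were in 1.67% of autosomal windows, 2.83% of WWOX windows (105), 1.88% of the peak middles of replicate 1 (3) and none of replicate 2. The authors removed reads of mapping quality below 40, which removes reads from repeats that cannot be placed uniquely, and the part of this step in the values was not tested.

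APH gave many γH2AX peaks in WWOX, untreated and MMS-treated cells gave few, and HU-treated cells gave none. The number of WWOX peaks was 160 and 53 in APH replicates 1 and 2. It was 5 and 1 in untreated cells, 3 and 6 after MMS, and 0 and 0 after HU. Both APH lists were above all other lists, and the untreated and MMS lists overlapped.

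The lists differ in size, so each WWOX count was set against the number of peaks on the autosomes (chromosomes 1 to 22) of the same list. The autosomal peaks numbered 4779 and 4327 in untreated cells, 17658 and 14009 after APH, 79891 and 69922 after HU and 12202 and 10465 after MMS. These sizes correspond to a mean of 0.173 and 0.157 peaks per 100 kb in untreated cells, 0.641 and 0.508 after APH, 2.90 and 2.54 after HU and 0.443 and 0.380 after MMS. The peak lists do not give the sequencing depth, and depth and treatment cannot be told apart in the number of peaks of a list.

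In WWOX the APH lists held 14.4 and 4.76 peaks per 100 kb, which is 22.4 and 9.37 times the autosomal mean of each list, 15.9 ± 9.24 (SD, n = 2). This ratio to the autosomal mean is called the relative density below. Against the mean of chromosome 16 in place of the autosomes the APH values were lower, at 9.83 and 5.15. A list spread evenly over the autosomes would place 7.13 and 5.66 APH peaks in WWOX. Replicate 1 thus exceeded replicate 2 by 2.40 times in relative density and by 3.02 times in peak number, while its autosomal list was larger by 1.26 times. WWOX peaks made up 0.906% of the autosomal list in replicate 1 (95% Clopper-Pearson interval 0.772 to 1.06%) and 0.378% in replicate 2 (0.284 to 0.495%). The intervals did not overlap, and both replicates lay far above the mean. The intervals cover counting error only and treat peaks as independent, which neighbouring peaks need not be. The difference between the replicates was not tested.

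The relative density of WWOX in untreated cells was 2.59 in replicate 1 (5 peaks, 0.105% of the list, interval 0.0340 to 0.244%) and 0.572 in replicate 2 (1 peak, 0.0231%, interval 0.000585 to 0.129%). The replicates lay on opposite sides of the autosomal mean and averaged 1.58 ± 1.43 (SD, n = 2).

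No HU peak fell in WWOX in either replicate, although HU gave the longest lists. An even spread would place 32.3 and 28.2 HU peaks in the gene. Taken as a limit of 3 peaks, a count of 0 allows a share of up to 0.00376% of the autosomal list in replicate 1 and 0.00429% in replicate 2, or relative densities of up to 0.0930 and 0.106. The upper Clopper-Pearson bounds, by which the other lists are described, were 0.00462% and 0.00528%. The difference between HU and untreated cells in mean relative density was −1.58 and had a two-sided exact permutation p of 0.333, which is the smallest value that 2 against 2 lists can give. This design cannot reach 0.05. The Clopper-Pearson interval of untreated replicate 2 extended below these upper bounds, so that its single peak did not separate it from HU.

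The MMS lists had a relative density of 0.609 (3 peaks, 0.0246% of the list, interval 0.00507 to 0.0718%) and 1.42 (6 peaks, 0.0573%, interval 0.0210 to 0.125%). The difference from untreated cells was −0.567 (exact permutation test, two-sided, p = 1), and the MMS values lay within the untreated range. This difference turned positive, at 0.442, without untreated replicate 1.

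**Figure D1:**
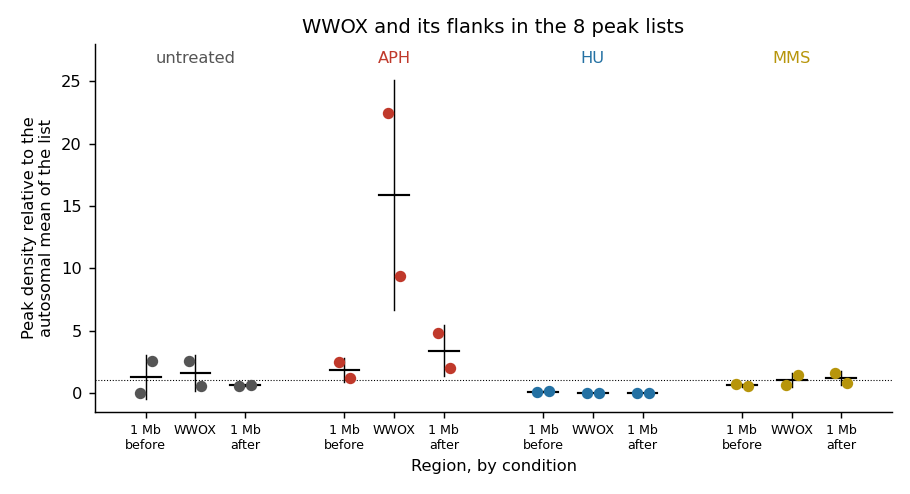
Relative density of γH2AX peaks (peaks per base divided by the autosomal mean of the list) in the 1 Mb before WWOX, in WWOX and in the 1 Mb after it, for 4 conditions. Points are the 2 replicates, horizontal lines their mean, vertical lines the mean ± SD, and the dotted line the autosomal mean. In WWOX the APH points stand at 22.4 and 9.37 and both HU points at 0.

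Peak density along the gene was followed in 11 windows of 100 kb from the start of WWOX. In APH replicate 1 the windows held, in order, 7, 9, 8, 15, 25, 18, 23, 14, 16, 15 and 10 peaks. In APH replicate 2 they held 5, 7, 1, 4, 5, 6, 11, 3, 3, 3 and 3 peaks. No window was empty in either replicate, and replicate 1 was higher than replicate 2 in all 11. The highest window was at 400 to 500 kb from the start in replicate 1, with a relative density of 39.0, and at 600 to 700 kb in replicate 2, with 21.6. The order of the windows was loosely shared between replicates (Spearman rho 0.358 over 11 windows of 1 gene, a description).

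Windows at 3 times the autosomal mean or more in both replicates numbered 10 of 11 after APH, 1 of 11 in untreated cells, 0 of 11 after HU and 0 of 11 after MMS. Among 27614 autosomal windows the same limit was met by 6.68% after APH, 3.87% in untreated cells, 11.5% after HU and 3.49% after MMS. A single peak passed the limit in the untreated lists, at 5.77 and 6.37 times the mean, but in no other list. The limit thus asks for different peak numbers in different conditions. The APH share in WWOX follows from how the gene was selected and is no separate result. The counts of untreated and MMS windows are too low to be read against these shares.

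**Figure D2:**
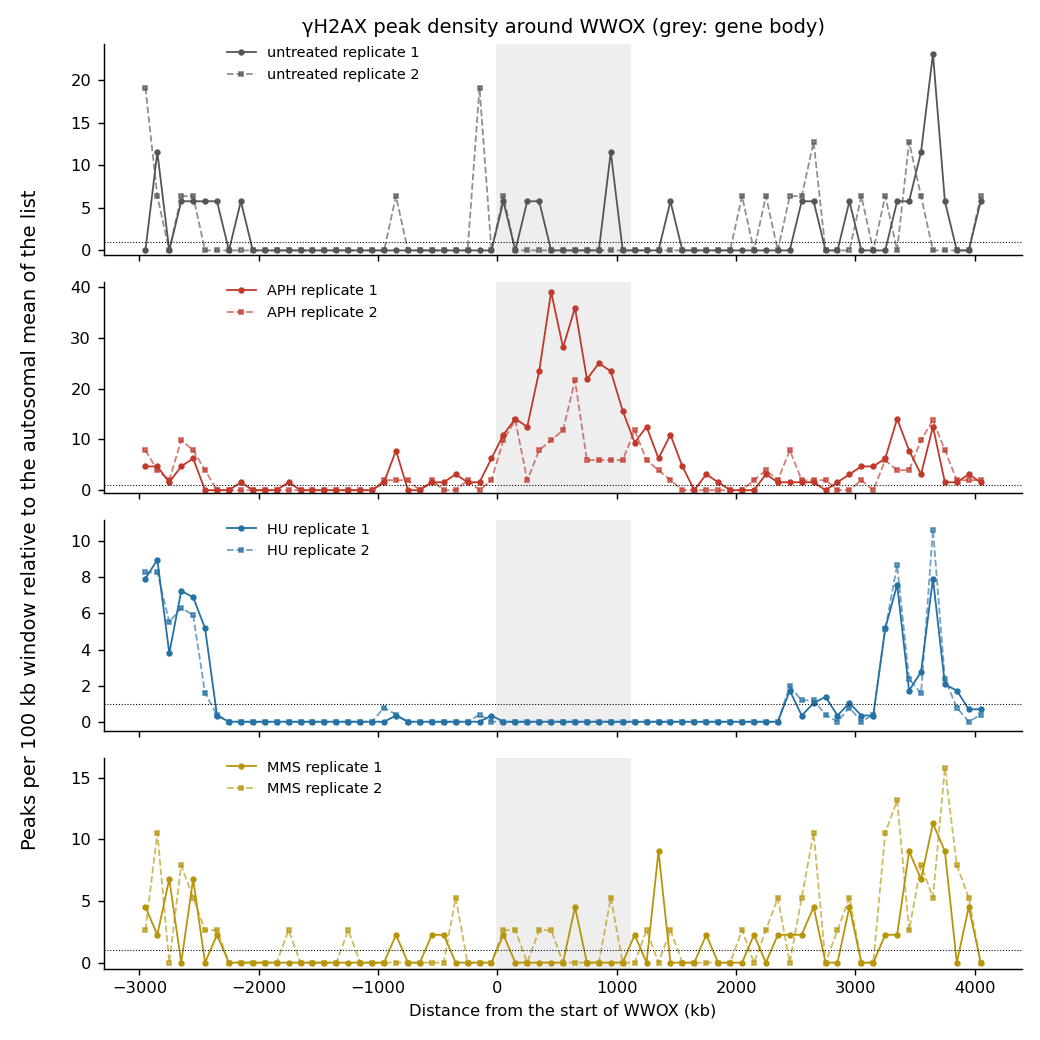
Peaks per 100 kb window, relative to the autosomal mean of the list (dotted line), against distance from the WWOX start (kb) in the 4 conditions, with 1 line per replicate and the gene shaded. The APH lines rise across the whole gene, and the HU lines stay at 0 across it and up to 2400 kb from its start.

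Around the gene the APH peaks thinned out at different distances. The 5 windows before the start held, towards the gene, 1, 2, 1, 1 and 4 peaks in replicate 1 and 0, 0, 1, 0 and 1 in replicate 2. The 5 windows from 1100 kb, the first of which holds the end of the gene, had 6, 8, 4, 7 and 3 peaks in replicate 1 and 6, 3, 2, 1 and 0 in replicate 2. A single peak already places a 100 kb window above the autosomal mean of these lists.

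The flanks were lower than the gene. In the 1 Mb before WWOX the APH lists held 16 and 6 peaks, a relative density of 2.5 and 1.18. In the 1 Mb after it they held 31 and 10 peaks, a relative density of 4.84 and 1.97. Chromosome 16 as a whole had a relative density of 2.28 and 1.82 in these lists. The flank after the gene was clearly above the chromosome only in replicate 1, and in replicate 2 the values were close (1.97 and 1.82). The flank before it was slightly above the chromosome in replicate 1 (2.5 and 2.28) and below it in replicate 2. The chromosome value includes WWOX itself, and these differences were not tested.

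The untreated lists held 0 and 4 peaks in the flank before the gene and 1 and 1 in the flank after it. The MMS lists held 3 and 2 before and 7 and 3 after. The HU lists held 2 and 4 peaks before the gene, a relative density of 0.0690 and 0.158, and 0 and 0 after it. Chromosome 16 as a whole had an HU relative density of 1.54 and 1.61.

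The stretch without an HU peak in either list extended from chr16:78038190-80513877, which is 2.48 Mb. It began 61464 bp before WWOX and ended 1301210 bp after it. On the autosomes, 170 stretches were as long or longer, and together they made up 27.8% of the autosomes. Among 6531 autosomal windows of 100 kb with a GC content of 41 to 44%, the range of the gene, 47.2% and 49.99% had no HU peak in replicates 1 and 2. Their mean HU relative density was 1.46 and 1.39. Long stretches without HU peaks were thus common on the autosomes.

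By intron, most APH peaks lay in introns 8 and 5, the longest. Intron 8 held 133 of the 160 peaks of replicate 1 (83.1%) and 40 of the 53 of replicate 2 (75.5%), in 70.0% of the gene. Its relative density was 26.7 and 10.1. Intron 5 held 18 peaks (11.3%) and 7 peaks (13.2%), in 20% of the gene, with a relative density of 12.6 and 6.19. Intron 8 was denser than intron 5 in both replicates.

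The shorter introns were also occupied. Intron 4 (49028 bp) held 3 and 3 APH peaks, with a relative density of 9.55 and 12. Intron 6 (37921 bp) held 4 and 1, with 16.5 and 5.19. Relative density did not follow intron length throughout, since intron 4 was above intron 8 in replicate 2 (12 against 10.1). Introns 1, 3 and 7 held 1 peak or none in each list, and intron 2 held none. The midpoint of every APH peak was intronic, and 1 peak, in replicate 2, touched an exon (exon 8). The first APH peak began 7396 bp from the gene start in replicate 1 and 2000 bp in replicate 2. No list had a WWOX peak within 1 kb of the start.

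**Figure D3:**
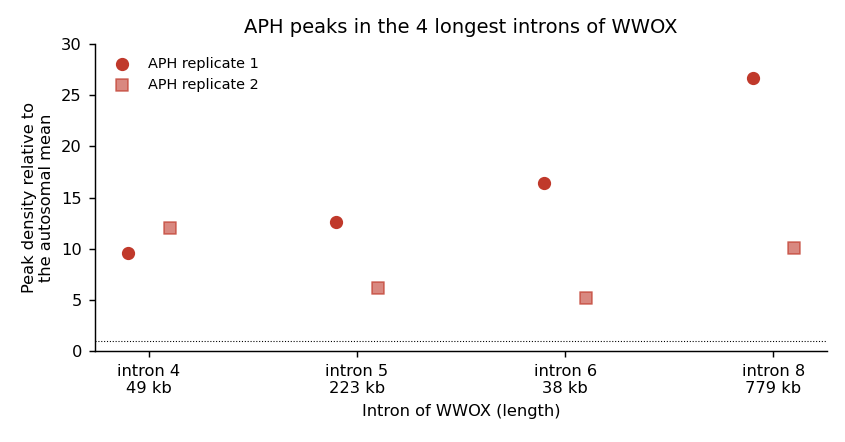
Relative density of APH peaks in the 4 longest introns of WWOX, with 1 point per replicate and the autosomal mean dotted. Intron 8 stands at 26.7 and 10.1 and intron 5 at 12.6 and 6.19.

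Single APH peaks in WWOX were weak. Their median fold enrichment was 2.64 in replicate 1 and 2.73 in replicate 2, against 2.55 and 2.67 over the whole lists. Their median −log10 p was 3.43 and 3.65, against 3.18 and 3.51. The highest fold enrichment in the gene was 3.34 and 3.31. At a q-value of 0.05, which corrects for the number of positions tested, 2 of 160 peaks passed in replicate 1 and 0 of 53 in replicate 2. In the full lists 97 and 183 APH peaks passed, against 62672 and 42142 HU peaks. The medians of WWOX peaks were thus a little above those of their lists. By p-value, 121 of the 160 peaks of replicate 1 and 35 of the 53 of replicate 2 were in the stronger 50% of their lists.

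Both peaks that passed came from replicate 1. They lay at chr16:78430023-78430272 in intron 7, with a fold enrichment of 3.34 and a q-value of 0.0335, and at chr16:78449444-78449902 in intron 8, with 3.29 and 0.0394. Neither was called in replicate 2.

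The APH peaks of replicate 1 were wider than those of its list, with a median of 762 bp in WWOX and 562 bp in all. In replicate 2 they were not, with 513 bp and 555 bp. The widest was 4287 bp in replicate 1 and 1360 bp in replicate 2. Peaks covered 161146 bp (14.5%) of WWOX in replicate 1 and 30971 bp (2.78%) in replicate 2. Over the autosomes the same lists covered 0.449% and 0.350%. The median gap between neighbouring APH peaks was 3412 bp in replicate 1 and 14423 bp in replicate 2. Joining peaks within 1 kb left 150 and 53.

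**Figure D4:**
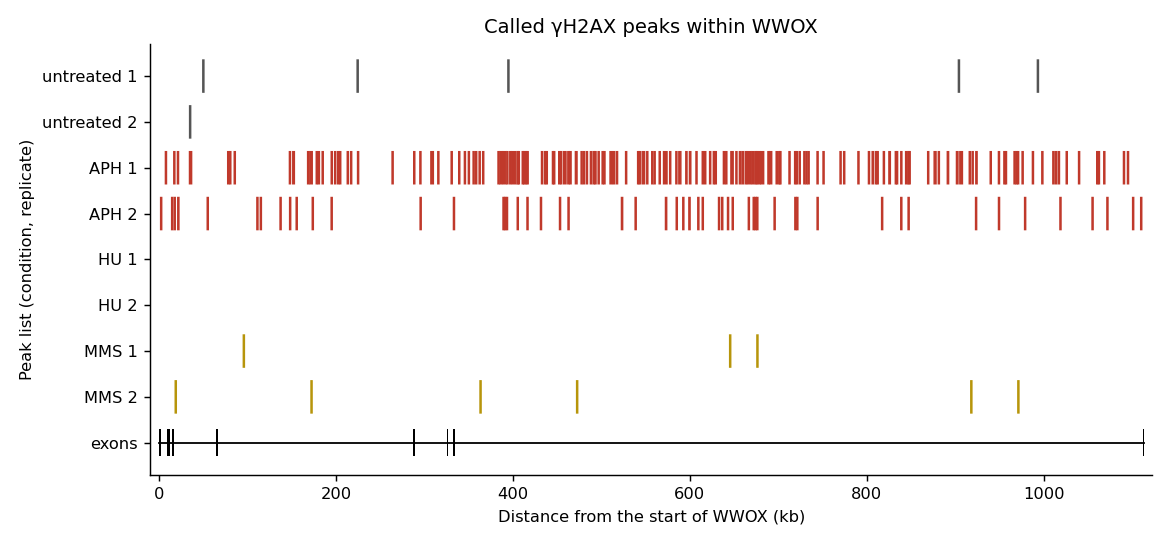
Position of every WWOX peak in the 8 lists along the gene (kb from its start), with exons marked and narrow peaks drawn wider than they are. The 160 and 53 APH peaks spread from end to end, and the HU rows are empty.

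The replicates placed part of their APH peaks at the same positions. Of the WWOX peaks, 24 of replicate 1 (15.0%) overlapped a peak of replicate 2 and the same number of sites made up 45.3% of replicate 2. Genome-wide, 10.4% of replicate 1 and 13.3% of replicate 2 overlapped. In WWOX, replicate 1 covered 14.5% of the sequence and replicate 2 covered 2.78%, and the part of this coverage in the overlap was not tested. Within 1 kb, 20% and 56.6% of the WWOX peaks had a partner, and the genome-wide share at this distance was not computed.

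Of the sites called in both replicates, 19 lay in intron 8, 2 in intron 4, 2 in intron 5 and 1 in intron 6. The 5 with the highest mean fold enrichment were all in intron 8. After the pair whose sequences are shown above came chr16:78713822-78714219 (2.90 and 2.94), chr16:78672261-78673620 (3.02 and 2.75) and chr16:78562110-78562320 (2.5 and 3.20). None of the 5 overlapped a peak of untreated, HU or MMS lists. The untreated and MMS lists each covered at most 0.226% of WWOX and the HU lists none, so nothing is read from this.

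Most sites were called in APH lists alone. Merging all WWOX peaks gave 198 sites, of which 192 were called in 1 condition and 6 in 2 conditions, and none in 3 or more. Of 145144 merged autosomal sites, 86.9% were called in 1 condition. Most WWOX peaks were APH peaks, so the few untreated and MMS peaks are given on their own. Of the 6 untreated peaks, 1 overlapped an APH peak, at chr16:78134391-78134590 in replicate 2. Over the autosomes, 32.1% and 30.9% of the peaks of untreated replicates 1 and 2 overlapped an APH peak. In WWOX these were 0 of 5 and 1 of 1, too few to be read against those shares. Of the 3 peaks of MMS replicate 1, the peak at chr16:78775603-78776462 overlapped peaks of both APH replicates. Of the 6 peaks of MMS replicate 2, 4 overlapped APH replicate 1 and 0 overlapped APH replicate 2. All 6 lay within 1 kb of a peak of APH replicate 1, whose peaks had a median gap of 3412 bp. The shares of the gene and of autosomal peaks within 1 kb were not computed, so nothing is read from this count. Over the autosomes, 14.5% and 13.4% of the peaks of MMS replicates 1 and 2 overlapped an APH peak, against 1 of 3 and 4 of 6 in WWOX, where APH replicate 1 covered 14.5% of the sequence. Neither the untreated replicates nor the MMS replicates shared a WWOX peak with each other, and the autosomal share for these pairs was not computed.

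Among 739 autosomal protein-coding genes of at least 300 kb, WWOX had the highest relative density in APH replicate 1 and the third highest in APH replicate 2. The median gene had 0.152 and 0.345. In replicate 2, DIP2C with 11.4 and GALNT18 with 10.1 were above WWOX with 9.37. At 3 times the mean or more in both replicates were 4.06% of these genes after APH, 1.35% in untreated cells, 1.08% after HU and 3.11% after MMS, and WWOX met the limit only after APH. No HU peak in either list was the state of 337 of the 739 genes (45.6%), so that the empty HU lists at WWOX were shared with many long genes.

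Most genes of the length of WWOX had few APH peaks. Of the 55 genes as long as WWOX or longer, itself included, 6 were at or above the autosomal mean in both APH lists and 35 had no peak in at least 1 APH list. In both HU lists 37 of the 55 were empty.

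**Figure D5:**
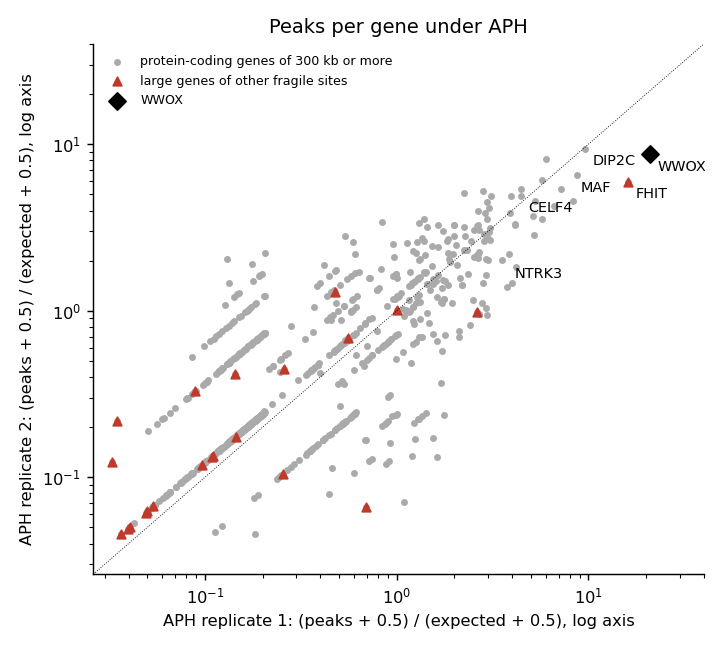
Relative density in APH replicate 1 against replicate 2 for 739 autosomal genes of at least 300 kb, on log axes after adding 0.5 to observed and expected peak numbers. Grey points are genes, red triangles large genes of other fragile sites, and the dotted line equal values. WWOX (22.4 and 9.37 without the addition) lies at the upper right with FHIT and DIP2C.

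The genes whose 8 values were most like those of WWOX were MAF, CELF4, NTRK3, DIP2C and FHIT, with distances of 3.4, 3.71, 4.29, 4.35 and 4.58. The distance is Euclidean over the log2 relative densities of the 8 lists, with 0.5 added to observed and expected numbers, and it includes the APH values by which WWOX was selected.

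MAF, a bZIP transcription factor gene, is the neighbour that overlaps the end of WWOX by 10046 bp. It held 25 and 11 APH peaks, a relative density of 9.80 and 5.44, and no HU peak. CELF4, which encodes an RNA-binding protein, held 11 and 10 APH peaks. NTRK3, the gene of the neurotrophin-3 receptor TrkC, held 11 and 3. DIP2C held 30 and 24 and differed from WWOX in untreated cells, where it held 5 and 6 peaks with a relative density of 6.94 and 9.20.

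FHIT, the diadenosine triphosphate hydrolase gene at the fragile site FRA3B, was the long gene closest to WWOX in peak number. It held 163 and 48 APH peaks, a relative density of 16.9 and 6.28. It had 0 and 2 untreated peaks, 2 and 1 HU peaks and 5 and 4 MMS peaks. Its APH replicates differed by 3.4 times, against 3.02 times for WWOX. Over the 24 genes with at least 10 peaks in both APH lists the median was 1.23, and WWOX and FHIT were the 2 with 3 times or more. The limit of 10 peaks in replicate 2 leaves out genes with few peaks there and a high ratio. Examples are AUTS2 (21 and 6 peaks, 3.5 times) and NTRK3 (11 and 3 peaks, 3.67 times). A ratio of 3 times or more was thus not limited to WWOX and FHIT. Other genes with few peaks had more in replicate 2, such as NOS1AP (3 and 6 peaks) and PTPRD (1 and 7 peaks). These differences between replicates were not tested.

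Other large genes of common fragile sites mostly lay below the autosomal mean after APH. Of a list of 23 such genes, 22 are autosomal and at least 300 kb long. FHIT was the only one at 3 times the mean or more in both APH lists, and DAB1, with 10 and 8 peaks and a relative density of 1.01 in both, was the only other at or above the mean in both. AUTS2 held 21 and 6 peaks, a relative density of 2.74 and 0.988. Of the 22 genes, 18 were below the mean in both lists (81.8%), 10 had no APH peak at all (45.5%) and 13 had no HU peak (59.1%). Over all 739 genes these shares were 68.2%, 34% and 45.6%, and with 22 genes no difference is read from them. Their median relative density was 0 in both APH lists, against 0.152 and 0.345 over all 739 genes. DMD, on the X chromosome and so outside the 22, had no peak in any of the 8 lists.

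The 1 Mb flanks hold 8 protein-coding genes. Of these, MAF had the most APH peaks, with 25 and 10 outside WWOX in replicates 1 and 2. ADAMTS18, which encodes a secreted metalloprotease, held 1 and 1 APH peaks. VAT1L held 2 and 1 APH peaks and 3 peaks in untreated replicate 2. NUDT7, which encodes a peroxisomal coenzyme A diphosphatase, held 1 and 0. CLEC3A, a C-type lectin gene close to the start of WWOX, held no APH peak. SYCE1L held 1 and 0 APH peaks and 1 peak in MMS replicate 1. MON1B held no APH peak and 1 peak in HU replicate 2, and LOC124903725 held no APH peak. After MMS, MAF held 5 and 2 peaks, where WWOX held 3 and 6 over a length of 1113014 bp against the 398116 bp of MAF.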

How the data were processed

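γH2AX ChIP-seq peak lists of 8 libraries (2 replicates of 4 conditions) were analysed. The input library was not used here. With Bowtie2 the authors mapped reads to GRCh38, used SAMtools for quality control, and removed reads of mapping quality below 40 and PCR duplicates. Broad peaks were called by MACS2 separately for each replicate, with input as background, and blacklisted regions were taken out. Versions are not given in the sources used here. The deposited lists give each peak's fold enrichment (a ratio), its p-value and q-value as −log10, and a score. The score was not used. The lowest −log10 p per list was 3.00 to 3.01. The replicates are separate samples in the labels and biological replicates in the study's text. No read numbers are in the lists, so depth is unknown.

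Peaks overlapping WWOX (RefSeq coordinates) by 1 bp were counted with Python 3.11.15, pandas 2.3.3 and pysam 0.24.0. Relative density used 2756 Mb of assembled autosomal bases, and 100 kb windows with at least 50% assembled bases. Introns came from GENCODE release 44. HU and MMS were each compared with untreated lists by exact permutation tests written in Python. The Clopper-Pearson intervals and the Spearman rho came from scipy 1.17.1. The peak counts and the relative density, but not the permutation tests, were checked on simulated data. The genes named were WWOX, those in the flanks, the 5 most like it and the 3 highest of a fragile site list plus FHIT. Sites were those called in both replicates, the 5 highest by mean fold enrichment. DIP2C and GALNT18, as genes above WWOX, and the AT repeat were named after their values were seen. The gene, the lists and the tests were chosen with earlier results of these data known.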

Additional observations from a re-analysis of the deposited data

How the results depend on the processing

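The mean relative density of WWOX after APH was 15.9, and it ranged from 9.37 to 22.4 when 1 replicate was left out. It was 23.2 for the stronger 50% of each list (33.9 and 12.4 by replicate). It was 28.6 for peaks of fold enrichment of at least 3 (45.1 and 12.1). With lists cut to equal numbers of the strongest peaks it was 27.2 (42.9 and 11.4). For peaks at a q-value of 0.05 or lower it was 25.5, the mean of 51.1 in replicate 1, from 2 peaks, and 0 in replicate 2. It was 7.49 against the mean of chromosome 16 and 12.1 against autosomal windows of the same GC content. The fold enrichment and q-value limits gave 0 in untreated cells, and 2.22 and 0 after MMS. In untreated replicates 1 and 2 the fold enrichment limit left 245 and 183 autosomal peaks, and the q-value limit 42 and 22. These are too few for a 0 in 1 gene to be read. The MMS value of 2.22 came from 1 peak in replicate 2. HU gave 0 peaks throughout. The difference between HU and untreated cells was −1.58, ranged from −2.59 to −0.572 with 1 replicate left out, and became 0 at a fold enrichment of at least 3 and 0 at the q-value limit. The difference between MMS and untreated cells was −0.567 and reversed with the stronger 50% of peaks (0.0588), at a fold enrichment of at least 3 (2.22) and without untreated replicate 1 (0.442), with −1.58 to 0.442 as the range over left-out replicates. It was 0 at the q-value limit. In none of these did the exact p reach 0.05, which 2 against 2 lists cannot, and the cause of the reversals was not tested.

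With the replicate number as a replicate block, the paired differences were −1.58 for HU (exact sign-flip p = 0.5) and −0.567 for MMS (exact sign-flip p = 1). A p of 0.5 is the smallest that the exact sign-flip test can give with 2 pairs. The numbers name the replicates only, and 2 pairs cannot show whether they pair the samples.

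Windows past 3 times the mean in both replicates after APH numbered 10 of 11 at 100 kb, 19 of 22 at 50 kb and 5 of 5 at 200 kb. In untreated cells the count of 1 became 0 at 200 kb and 0 with the stronger 50% of peaks, and 1 to 4 with 1 replicate left out. After MMS the count of 0 became 1 at a limit of 2 times the mean and 1 with either replicate left out.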

Other observations

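Between 1200 and 2400 kb from the gene start, MMS replicates 1 and 2 held 7 and 6 peaks, APH 28 and 10, untreated cells 1 and 2 and HU 0 and 0. In the 2300 kb before the start, APH held 18 and 6 peaks, HU 2 and 4, MMS 3 and 4 and untreated cells 1 and 4. The 300 bp at the middle of APH peaks in WWOX had a median GC content of 44% and 45.3% in replicates 1 and 2, against 43.0% for all 300 bp windows of the gene.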
